A study of Mus musculus with 4 samples.

Results

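The subunits of the ionotropic and metabotropic receptors for glutamate, GABA and glycine were examined in single-cell RNA-sequencing counts of the neonatal mouse forebrain. Members were the genes whose symbol begins with *Gria*, *Grik*, *Grm*, *Gabr*, *Gabbr*, *Glra* or *Glrb*, or with *Grin* followed by 1, 2 or 3, and then holds only a subunit letter or digit. The rule gave 50 of the 32285 genes of the matrices, namely 4 AMPA, 5 kainate, 7 NMDA and 8 metabotropic glutamate receptor subunits, 19 GABA-A and 2 GABA-B receptor subunits and 5 glycine receptor subunits. It uses names alone and no measured value.

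AMPA, kainate and NMDA receptors are tetrameric cation channels opened by glutamate, and NMDA receptors also need a co-agonist and relief from magnesium block. GABA-A and glycine receptors are pentameric anion channels, whose effect on a cell follows its chloride gradient and can be depolarizing in immature neurons. Metabotropic glutamate receptors and GABA-B receptors act through G proteins. Subunit composition sets conductance, kinetics and location, changes during development, and differs between neurons, astrocytes and the oligodendrocyte lineage, all of which are known to express some of these receptors.

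All mice were C57BL/6 at postnatal day 5 and carried NestinCreERT2, a tamoxifen-dependent Cre driven by the Nestin promoter of neural progenitors, together with a tdTomato reporter. Controls were Chd8+/+ and mutants Chd8+/F, in which Cre can remove the loxP-flanked exons of 1 *Chd8* allele. Tamoxifen was given before birth to both groups, and tdTomato-positive cells were sorted from pools of 3 mice, so that 1 library stands for 1 pool and the spread between mice is not measured. There were 2 libraries per genotype, numbered as replicates 1 and 2. Values for the 4 libraries are given below in the order control replicate 1, mutant replicate 1, control replicate 2 and mutant replicate 2.

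The filters kept 17623 of 27742 barcodes, from 2973 to 5710 per library, with 37355364 to 73584401 unique molecular identifiers (UMIs), each standing for 1 captured mRNA. Any pair of libraries shared 2 to 15 cell barcodes. The replicates stood apart: the matrix headers named Cell Ranger 7.0.0 for both libraries of replicate 1 and 5.0.1 for both of replicate 2, 37.8% to 44.0% of barcodes exceeded the mitochondrial limit in replicate 2 against 9.38% to 12.3% in replicate 1, and *Xist* was at 1630 and 1750 CPM (UMIs of a gene per 1000000 UMIs of the cells) in replicate 2 against 0.149 and 0.153 in replicate 1. *Xist* is transcribed from the inactive X chromosome of female cells, so that the replicates also differed in a marker of sex, and replicate, software and sex cannot be told apart. *Chd8* itself was at 61.7, 68.7, 89.8 and 94.9 CPM and was not lower in the mutant of either replicate; counts at the 3′ end do not resolve the floxed exons, so that this does not check the recombination, and "mutant" below stands for the libraries labelled so. The cells, labelled as neuronal, were clustered without the members, and each cluster was named from marker genes, so that every type name below means cells resembling that type. There were 1008 excitatory neurons, 487 excitatory precursors, 2959 inhibitory neurons, 630 inhibitory neuron (IN) progenitors, 1058 neural progenitor cells (NPCs), 4097 astrocytes, 1026 astrocyte progenitors, 1211 primitive oligodendrocyte progenitor cells (pri-OPCs) and 2165 OPCs, with at least 20 cells of each in every library. The 362 microglia served as cells in which neuronal receptor transcripts should be few.

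Before the levels, the sequence upstream of 4 members is shown because their levels differed between cell types and a pair of them are neighbours. *Gabrg1* and *Gabra2* lie in 1 group of 4 GABA-A genes, on chr5:70751047-72149037 of GRCm38 (mm10), on the same strand, and were highest in astrocytes and in excitatory neurons, respectively. *Grm3* was highest in astrocytes and *Grik3* in inhibitory neurons. Each line gives the 120 bases before the RefSeq start (GRCm38.p6), 5′ to 3′ on the strand of the gene, with CpG dinucleotides in capitals. None of these 4 windows overlapped an annotated exon. They were chr5:70842618-70842737 for *Gabrg1*, chr5:71095850-71095969 for *Gabra2* and chr5:9725353-9725472 for *Grm3*, all on the minus strand, and chr4:125490576-125490695 for *Grik3*, on the plus strand.
Gabrg1: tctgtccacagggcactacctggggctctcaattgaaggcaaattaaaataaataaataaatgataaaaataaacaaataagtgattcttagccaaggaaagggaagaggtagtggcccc
Gabra2: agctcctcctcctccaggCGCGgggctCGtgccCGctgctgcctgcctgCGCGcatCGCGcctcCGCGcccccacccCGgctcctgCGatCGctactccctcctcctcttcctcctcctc
Grm3: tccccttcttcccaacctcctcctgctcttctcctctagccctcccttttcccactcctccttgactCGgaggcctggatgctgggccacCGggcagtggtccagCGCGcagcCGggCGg
Grik3: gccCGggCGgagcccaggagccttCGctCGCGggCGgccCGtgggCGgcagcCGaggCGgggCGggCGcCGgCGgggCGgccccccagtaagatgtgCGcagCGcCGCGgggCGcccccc
The window of *Gabrg1* held 0 CpG and that of its neighbour *Gabra2* held 13, against 6 for *Grm3* and 20 for *Grik3*. RefSeq gave a window of 300 bases (250 before and 50 after the start) for 36 members, and their median ratio of observed to expected CpG was 0.544, against 0.389 over all 27025 genes with a window. The share of members with a ratio of at least 0.6 was 44.4%, against 36.5% of all genes. *Gabra4* and *Gabrb1*, the other genes of the chromosome 5 group, are annotated head to head with their first 196 bases overlapping on opposite strands.

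**Figure D1:**
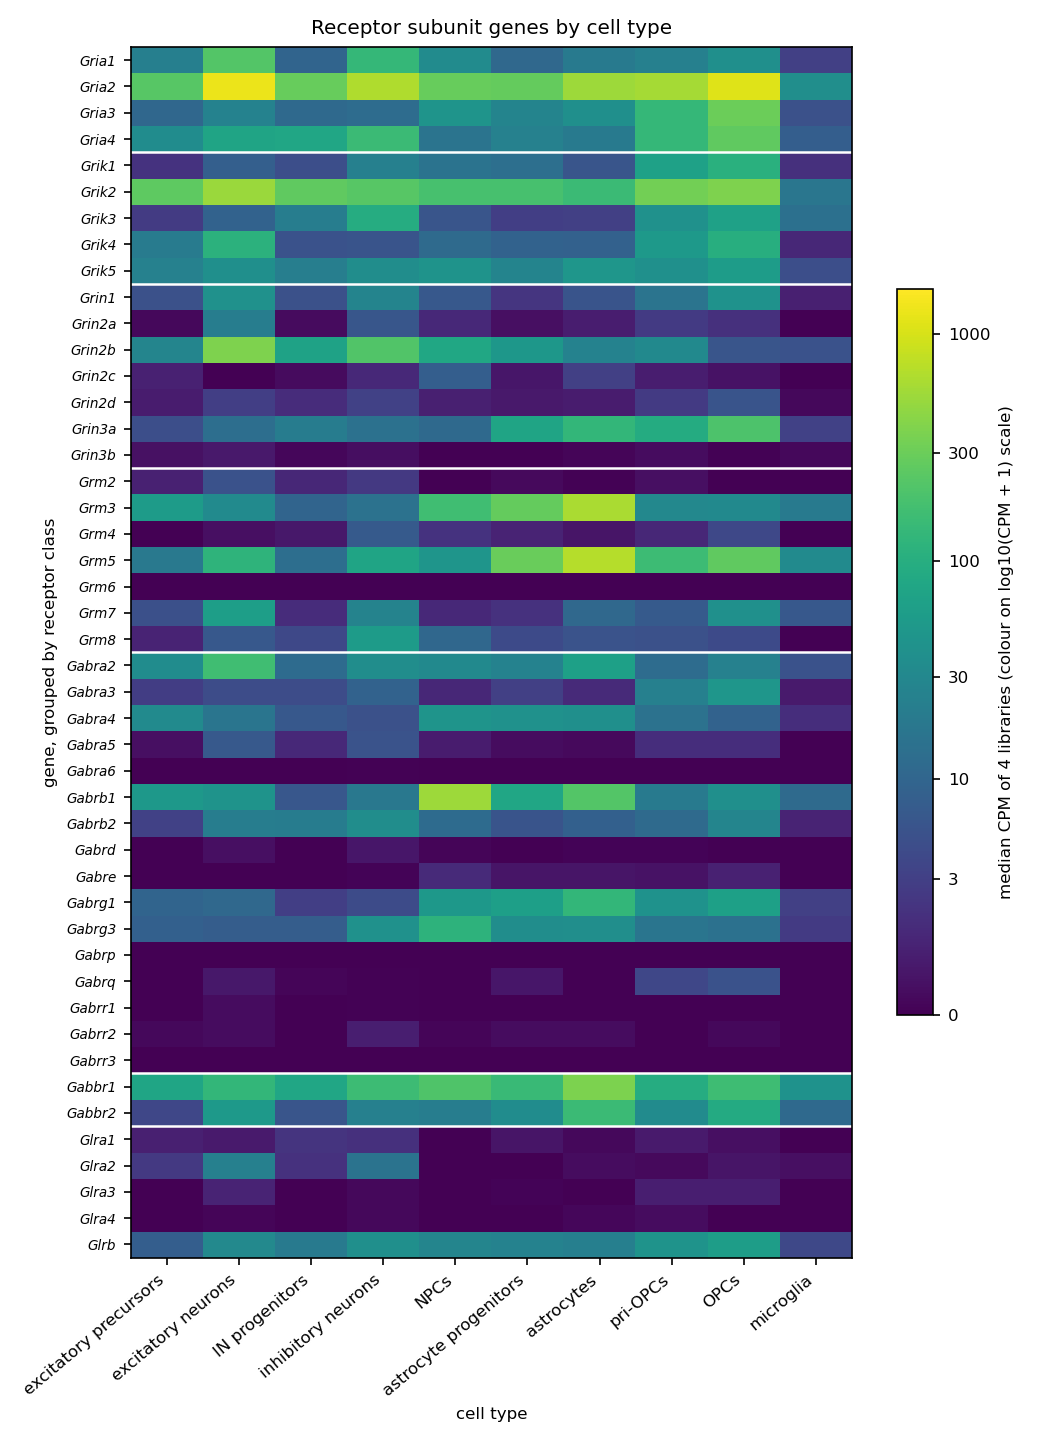
Median CPM of the 4 libraries for members (rows, grouped by receptor class and separated by white lines) in 9 cell types and in microglia (columns), coloured on a log10(CPM + 1) scale. *Gria2* is bright in every neural type, *Grm3* and *Grm5* are brightest in astrocytes, *Gabrb1* is brightest in NPCs, and *Gabra6*, *Gabrp*, *Gabrr3* and *Grm6* stay at or near 0 throughout.

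Expression of the members was broad but uneven across the types. In OPCs and in astrocytes, 29 members had at least 10 UMIs in every library, as did 21 in excitatory neurons, 19 in inhibitory neurons, 18 in NPCs, 10 in IN progenitors and 9 in excitatory precursors. These counts also follow depth, since the shallowest library held 12087581 UMIs for astrocytes and 719883 for IN progenitors. *Gabrp*, *Gabrr1* and *Gabrr3*, subunits known mainly from peripheral tissue or retina, *Gabra6*, the cerebellar granule cell subunit, *Grm6*, the receptor of retinal bipolar cells, and *Gabrd* stayed at or below 1.14 CPM in every library of the 9 types. *Gabrr2*, another retinal subunit, reached 1.24 CPM in inhibitory neurons, *Grin3b*, a glycine-binding NMDA receptor subunit, 2.10 CPM in excitatory precursors and *Gabre*, the epsilon subunit, 3.63 CPM in NPCs. Because the levels of many members differed between replicates (below), ratios between types are taken only within a library. Statements that every library of a type lies above or below another type, or that libraries do not overlap, compare across libraries.

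Among the AMPA receptor subunits, *Gria2*, whose edited transcript makes the channel impermeable to calcium, was found in every neural type. In excitatory neurons it was at 1030, 1140, 1420 and 1510 CPM, and in OPCs at 798, 918, 1270 and 1470 CPM. Inhibitory neurons held 534, 547, 774 and 965 CPM and astrocytes 455, 498, 583 and 587 CPM, against 22.2 to 93.9 CPM in microglia. The order of excitatory neurons, then OPCs, then inhibitory neurons held within each library, and inhibitory neurons exceeded astrocytes in each library. *Gria1*, a subunit that is inserted into synapses during potentiation, was at 299, 312, 143 and 123 CPM in excitatory neurons and at 189, 164, 105 and 48.9 CPM in inhibitory neurons, and reached at most 69.4 CPM in OPCs and 25 CPM in astrocytes.

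*Gria3* and *Gria4* had another distribution. *Gria3* was at 343, 399, 256 and 237 CPM in OPCs and at 133, 201, 134 and 131 CPM in pri-OPCs, whereas no library of either neuron type exceeded 47.7 CPM. Every OPC library thus lay above every library of the other 8 types. *Gria4*, associated with fast-gating receptors, was at 404, 448, 114 and 72.2 CPM in OPCs and 263, 255, 48.6 and 25.6 CPM in inhibitory neurons, and the replicate 2 values of both types lay below the replicate 1 values. On a scale of CPM per kilobase of exon, *Gria2* made a median of 77.0% of the AMPA subunits in astrocytes, 62.2% in excitatory neurons, 49.6% in inhibitory neurons and 48.0% in OPCs, with ranges over libraries that overlapped between all 4 types. Whether counts at the 3′ end scale with exon length was not tested. All shares per kilobase given here and below depend on that division and are not measured subunit proportions.

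Among the kainate receptor subunits, a pair had opposite orders in the neuron types. *Grik4*, a high-affinity subunit that needs a partner to form a channel, was at 189, 235, 38.9 and 37.3 CPM in excitatory neurons and at 12.1, 7.81, 3.74 and 1.71 CPM in inhibitory neurons. *Grik3*, a low-affinity subunit, showed the opposite order, with 12.6, 18.4, 5.76 and 2.87 CPM in excitatory neurons and 132, 138, 51.1 and 55.2 CPM in inhibitory neurons. The libraries of the 2 types did not overlap for either gene. The ratio of excitatory to inhibitory neurons was 10.4-fold to 30.1-fold (median 18.4-fold) for *Grik4*, and *Grik3* was 7.46-fold to 19.2-fold (median 9.65-fold) lower in excitatory neurons.

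Both of these genes were also found in OPCs, *Grik4* at 168, 177, 27.6 and 31.2 CPM and *Grik3* at 90.7, 93.1, 41.6 and 44.3 CPM. *Grik1*, another low-affinity subunit, was at 179, 216, 29.6 and 37.3 CPM in OPCs and at no more than 43.8 CPM in either neuron type. *Grik2*, whose product can form channels by itself, was at 978, 1050, 65.5 and 59.1 CPM in excitatory neurons and at 728, 686, 72.2 and 68.0 CPM in OPCs, so that the replicates differed far more than these types did. *Grik5*, the other high-affinity subunit, ranged from 14.1 to 71.4 CPM over all libraries of the 9 types.

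**Figure D2:**
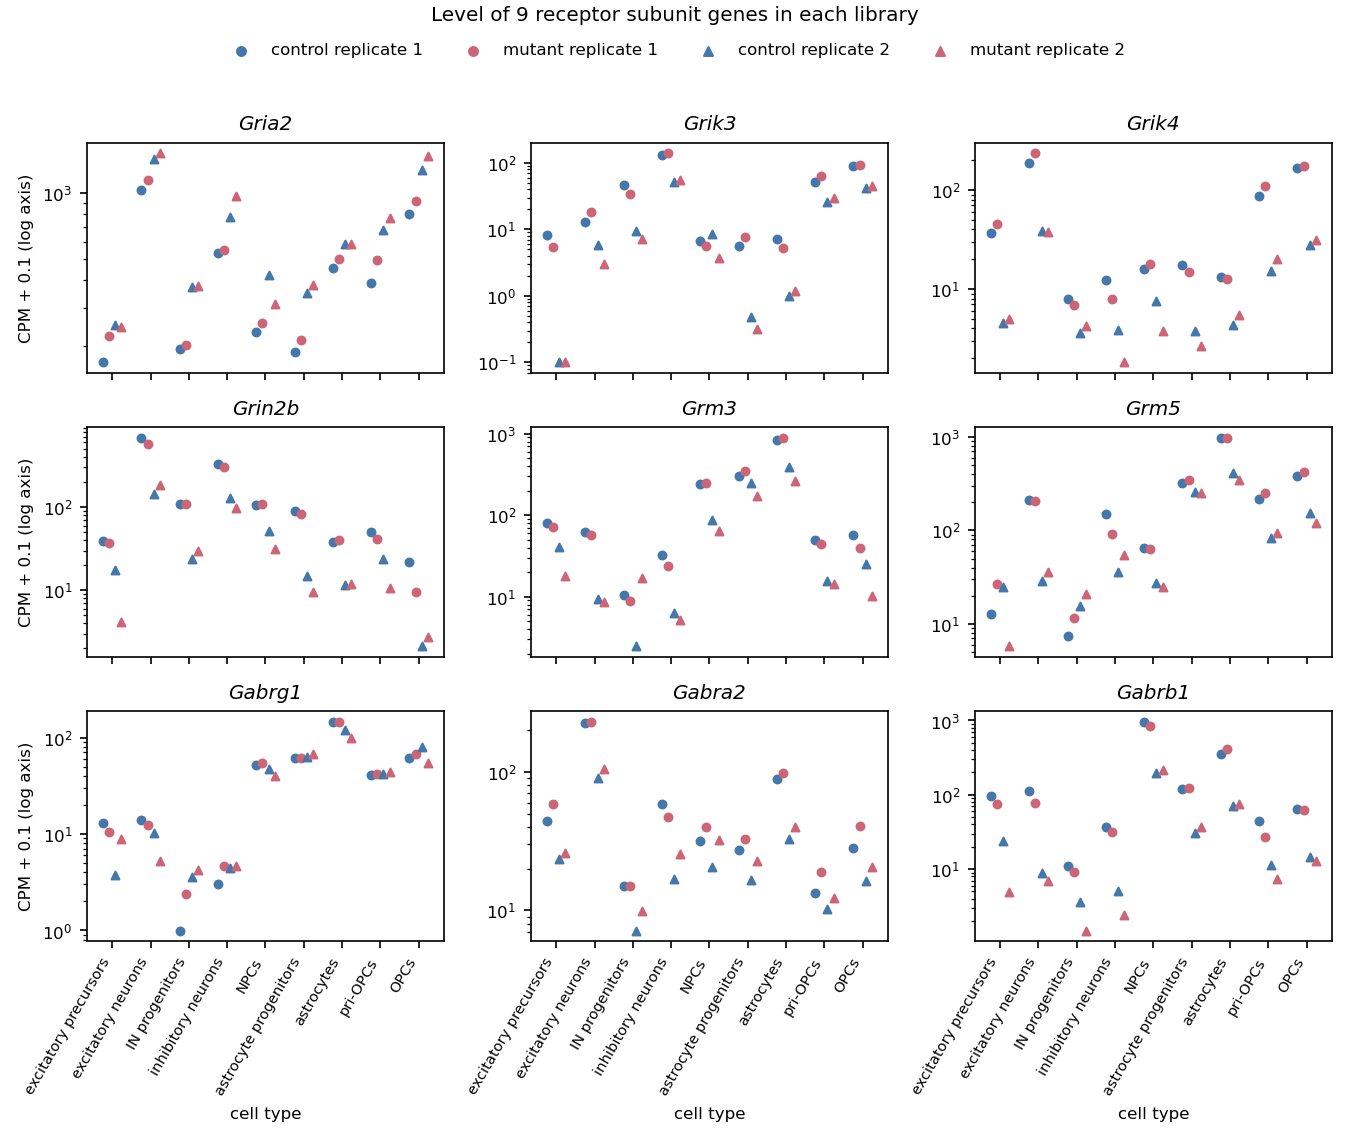
CPM + 0.1 on a log axis for 9 members in each library (blue, control; red, mutant; circles, replicate 1; triangles, replicate 2) in 9 cell types. *Grik4* and *Grik3* are ordered oppositely in the 2 neuron types, *Gabrg1* is highest in astrocytes, *Gabra2* in excitatory neurons and *Gabrb1* in NPCs, and for *Grik4*, *Grin2b* and *Gabrb1* the triangles mostly lie below the circles of the same type.

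For the NMDA receptor, *Grin1* encodes the subunit that every functional receptor contains and was at 57.6, 56.0, 25.2 and 17.2 CPM in excitatory neurons, 37.1, 32.6, 19.9 and 21.6 CPM in inhibitory neurons and 48.7, 55.9, 34.3 and 32.0 CPM in OPCs. Astrocytes held 7.63, 10.0, 3.97 and 4.12 CPM. *Grin2b*, the GluN2 subunit typical of the perinatal brain, was at 688, 579, 143 and 187 CPM in excitatory neurons and 327, 302, 128 and 97.3 CPM in inhibitory neurons. In OPCs it was at 21.7, 9.30, 2.0 and 2.62 CPM, below every library of both neuron types.

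Among the 4 GluN2 subunits, on a scale of CPM per kilobase of exon, *Grin2b* made a median of 91.3% in excitatory neurons (83.5% to 96.6%) and 85.6% in inhibitory neurons (74.3% to 94.4%), but 16.9% in OPCs (6.88% to 46.9%). There *Grin2d* made 61.7% (44.7% to 77.0%), at 3.15 to 7.69 CPM. That order depends on the division by exon length, 24842 bases for *Grin2b* and 6658 for *Grin2d*. Undivided, OPCs held 137, 81, 6 and 10 UMIs of *Grin2b* and 35, 67, 18 and 12 of *Grin2d*. *Grin2b* was thus the more counted in both libraries of replicate 1 and the less counted in both of replicate 2. *Grin2a*, which replaces *Grin2b* in many receptors after birth, was at 85.9, 40.7, 2.16 and 1.72 CPM in excitatory neurons. *Grin2c* was highest in NPCs, at 8.02, 9.23, 7.92 and 4.35 CPM. *Grin3a*, a glycine-binding subunit that lowers calcium permeability, had its highest levels in glia, with 215, 249, 179 and 182 CPM in OPCs and 141, 134, 115 and 124 CPM in astrocytes, against 7.40 to 25.7 CPM in the neuron types. The groups of libraries did not overlap between OPCs, astrocytes and neurons.

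Of the metabotropic glutamate receptors, *Grm3* and *Grm5* had their highest levels in astrocytes. *Grm3*, a receptor that couples to Gi, was at 837, 896, 394 and 263 CPM in astrocytes and 303, 344, 247 and 173 CPM in astrocyte progenitors. *Grm5*, coupled to Gq and calcium release, was at 979, 984, 412 and 347 CPM in astrocytes and 322, 350, 258 and 249 CPM in astrocyte progenitors. Within each library both were higher in astrocytes than in any of the other 8 types. In OPCs, *Grm5* was at 377, 419, 153 and 121 CPM and *Grm3* only at 57.4, 39.5, 25.3 and 9.97 CPM.

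Microglia of mutant replicate 1, of which there were 72, held *Grm5* at 137 CPM and *Grm3* at 75.4 CPM, against 17.2 to 34.9 CPM and 4.91 to 25.4 CPM in the other libraries; the source of these counts was not tested. *Grm8*, a presynaptic receptor, was at 142, 108, 4.36 and 3.98 CPM in inhibitory neurons, and *Grm7*, another one, at 175, 117, 5.76 and 2.87 CPM in excitatory neurons. Both were far lower in replicate 2 than in replicate 1. *Grm4* reached at most 7.40 CPM and *Grm2* 9.97 CPM, both in inhibitory neurons.

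The GABA-A receptor is mostly built from alpha, beta and gamma subunits. Among the gamma subunits, *Gabrg1* was at 145, 146, 119 and 97.6 CPM in astrocytes and at 2.92 to 13.8 CPM in the neuron types, and made a median of 85.3% of the gamma subunits per kilobase of exon in astrocytes (76.1% to 94.5%). *Gabrg3* was highest in NPCs, at 176, 177, 57.0 and 44.3 CPM.

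Among the beta subunits, *Gabrb1* was highest in NPCs within each library, at 965, 849, 196 and 213 CPM, followed by astrocytes at 359, 413, 71.6 and 75.8 CPM. Per kilobase of exon it made a median of 78.8% of the beta subunits in astrocytes (68.5% to 84.6%), against 7.22% in excitatory neurons (4.11% to 10.4%) and 2.83% in inhibitory neurons (1.28% to 3.47%). *Gabrb2*, common in the adult brain, was at 68.8, 65.6, 5.61 and 6.83 CPM in inhibitory neurons.

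Of the alpha subunits, *Gabra2* was highest in excitatory neurons, at 224, 231, 90.7 and 105 CPM, with 58.9, 47.4, 16.8 and 25.6 CPM in inhibitory neurons and 88.9, 97.6, 32.8 and 39.7 CPM in astrocytes. *Gabra4* was lower in both neuron types (3.74 to 23.0 CPM) than in astrocytes (44.2, 50.6, 29.6 and 33.3 CPM) and NPCs (51.0, 51.4, 31.1 and 37.0 CPM). *Gabra3*, an X-linked gene, was highest in OPCs, at 60.9, 66.9, 33.9 and 25.5 CPM, where it made a median of 65.6% of the alpha subunits per kilobase (60.7% to 70.0%). *Gabra5*, found in extrasynaptic receptors, reached at most 18.4 CPM, in excitatory neurons. *Gabrq*, next to *Gabra3* on the X chromosome, was at 3.80 to 6.30 CPM in OPCs and 1.44 to 4.89 CPM in pri-OPCs, and at no more than 2.78 CPM in the other 7 types.

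The GABA-B receptor is an obligate pair, in which the product of *Gabbr1* binds GABA and that of *Gabbr2* couples to the G protein. *Gabbr1* was found in every type and was highest in astrocytes within each library, at 355, 393, 329 and 397 CPM, against 25.8 to 66.7 CPM in microglia. *Gabbr2* was at 177, 195, 123 and 85.0 CPM in astrocytes, 106, 113, 73.9 and 55.6 CPM in OPCs and 87.1, 60.2, 30.2 and 42.5 CPM in excitatory neurons, but at no more than 8.22 CPM in excitatory precursors and IN progenitors. The precursors of both neuron types thus held *Gabbr1* (70.5 to 93.4 CPM) with little *Gabbr2*.

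For the glycine receptor, *Glra2*, the fetal alpha subunit, was at 44.8, 33.1, 9.36 and 14.3 CPM in excitatory neurons and 24.5, 21.7, 7.47 and 9.10 CPM in inhibitory neurons, and at no more than 2.78 CPM in any library of the other 7 types. *Glrb*, the beta subunit that binds gephyrin, was at 75.0, 83.7, 43.9 and 40.9 CPM in OPCs and at 13 to 55.7 CPM in the neuron types. *Glra1*, *Glra3* and *Glra4* stayed at or below 3.14 CPM.

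Ratios between types were then counted within each library. A member was counted where the higher type had at least 10 UMIs in every library and the ratio was at least 2-fold in the same direction in all 4, with counts below 3 set to 3; no test was made, since the types are clusters of the same cells. Between excitatory neurons and excitatory precursors, 11 of 21 members that could be counted were higher in neurons and 0 were lower, against 6.44% of 10041 genes higher and 6.91% lower. Named by class, these included *Gria1* (6.96-fold to 19.1-fold), *Gria2* (5.15-fold to 6.16-fold), *Grik4*, *Grin1* (5.34-fold to 11.5-fold), *Grin2b* (8.16-fold to 46.4-fold), *Gabra2* (3.87-fold to 5.05-fold), *Gabbr2* (6.89-fold to 83.0-fold), *Glra2* and *Glrb*. For *Glra2*, 1 library of the precursors was under 3 UMIs. The median log2 ratio was 2.01 for the members and -0.04 for all genes. Only 9 of the 21 members had at least 10 UMIs in every precursor library and could be counted as lower. The others qualified through the neurons alone, so that the 0 lower and this median are partly set by the rule.

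On the inhibitory side, 7 of 19 members were higher in neurons than in IN progenitors and 0 were lower, against 4.58% and 5.72% of 9767 genes. They were *Gria1* (5.07-fold to 29.7-fold), *Gria2* (2.08-fold to 2.76-fold), *Grik3* (2.83-fold to 7.95-fold), *Grin2b* (2.77-fold to 5.43-fold), *Grm5*, *Gabra2* and *Glra2*, and the IN progenitors of 2 libraries were under 3 UMIs for *Gria1* and for *Glra2*. Without mutant replicate 2, in which 47 IN progenitors were found, 13 members were higher. Only 10 of the 19 members had at least 10 UMIs in every library of the IN progenitors and could be counted as lower. In astrocytes, *Gabrb1* (2.08-fold to 3.34-fold), *Gabbr2* (2.33-fold to 6.20-fold) and *Grm7* (3.0-fold to 6.30-fold) were higher than in astrocyte progenitors, which made 3 of 29 members, and 0 were lower, against 2.56% and 5.56% of 13226 genes. The astrocyte progenitors of 2 libraries were under 3 UMIs for *Grm7*. The count was 5 without mutant replicate 2 and 6 with scaling by trimmed mean of M-values (TMM). Of the 29 members, 21 had at least 10 UMIs in every library of the astrocyte progenitors and could be counted as lower.

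Neurons, with excitatory and inhibitory cells summed, differed from astrocytes in 19 of 32 members, of which 12 were higher and 7 lower in neurons, against 13.4% and 15.9% of 13502 genes. Those higher in neurons included *Glra2* (33.6-fold to 79.7-fold), *Grik3* (13.6-fold to 33.0-fold) and *Grin2b* (9.37-fold to 12.2-fold). For *Glra2*, 1 library of the astrocytes was under 3 UMIs (9, 5, 3 and 1) and was set to 3, so that this range is partly set by that floor. Higher in astrocytes were *Grm3* (20.2-fold to 51.3-fold), *Gabrg1* (17.0-fold to 23.1-fold), *Gabrb1* (5.93-fold to 16.6-fold), *Grin3a* (7.70-fold to 14.9-fold), *Grm5* (5.82-fold to 12.7-fold), *Gabra4* (3.79-fold to 4.43-fold) and *Gabbr2* (3.10-fold to 5.47-fold). The 4 genes of the chromosome 5 group were therefore split in this comparison with summed neurons. *Gabrg1*, *Gabra4* and *Gabrb1* were higher in astrocytes and *Gabra2* was counted in neither direction (0.31, -0.03, 0.64 and 0.72 on the log2 scale). Taken apart, excitatory neurons held more *Gabra2* than astrocytes in each library and inhibitory neurons held less.

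Between excitatory and inhibitory neurons, *Grik4*, *Gabra2* (3.81-fold to 5.39-fold) and *Gabra4* (2.38-fold to 3.48-fold) were higher in excitatory neurons and *Grik3* was lower, that is 3 and 1 of 23 members against 5.57% and 2.91% of 10121 genes. Without control replicate 2 the counts were 6 and 2, without mutant replicate 2 the lower count was 3, and at a cluster resolution of 2 the higher count was 6. In every library, fewer than 3 UMIs of *Grm2* were found in astrocytes, so that its ratio to neurons (12.3-fold to 30.9-fold) was set by the floor of 3 UMIs.

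**Figure D3:**
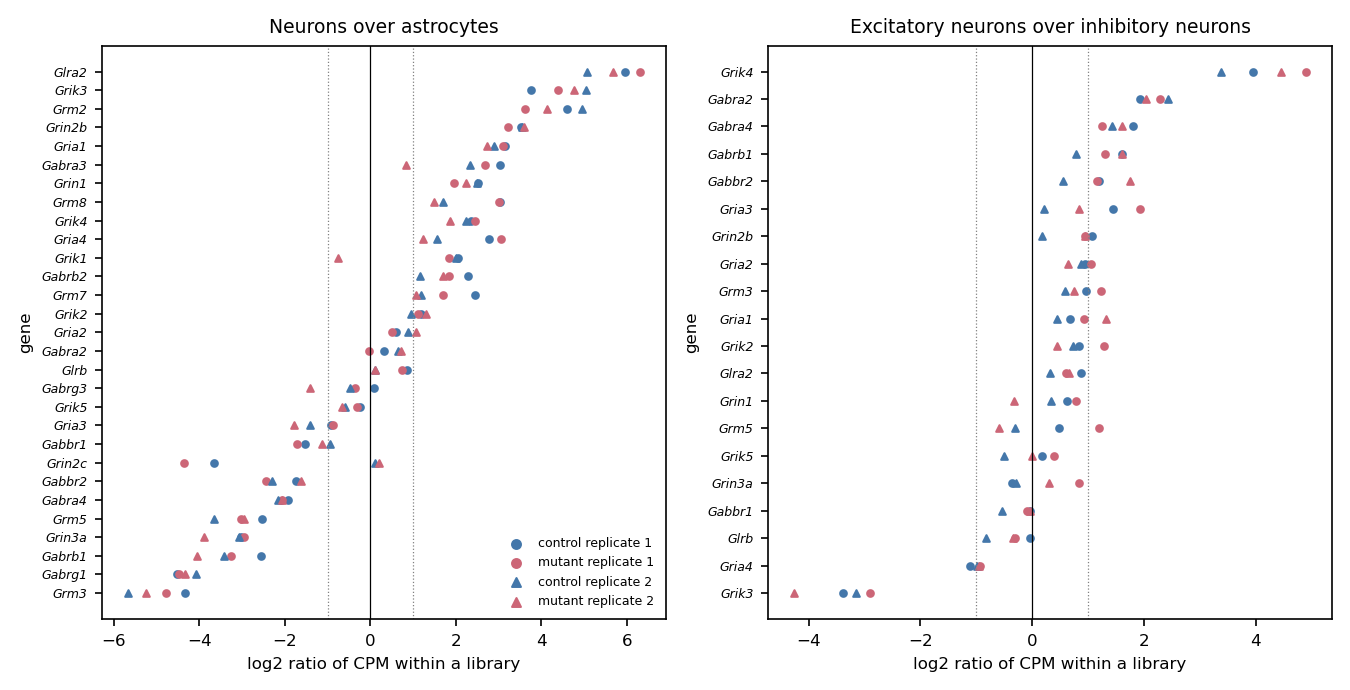
Log2 ratio of CPM between 2 cell types within each library (blue, control; red, mutant; circles, replicate 1; triangles, replicate 2), for members that could be counted in neurons over astrocytes (left) and in excitatory over inhibitory neurons (right), ordered by median; dotted lines mark 2-fold. At the left, *Glra2* and *Grm3* stand at opposite ends with all 4 libraries on 1 side, and at the right *Grik4* and *Grik3* do.

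Partners of the receptors, a list of 34 genes for auxiliary subunits, scaffolds, chloride transporters and delta glutamate receptors, were counted by the same rule. Between neurons and astrocytes 9 of 32 were higher and 5 lower in neurons, against 13.4% and 15.9% of all genes. The higher ones included *Cacng2*, the AMPA receptor auxiliary subunit stargazin, *Lhfpl4*, an auxiliary protein of synaptic GABA-A receptors, *Dlg2*, a postsynaptic scaffold, and *Kctd16*, a GABA-B receptor auxiliary subunit. *Kctd12*, another GABA-B auxiliary subunit, and *Grid1*, which encodes a delta glutamate receptor, were among those lower. In excitatory neurons 5 of 25 partners were higher than in their precursors and 1 lower, against 6.44% and 6.91% of all genes, and in inhibitory neurons 4 of 25 and 0, against 4.58% and 5.72%.

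The members are long genes, and their levels differed between replicates. The 40 members with at least 10 UMIs in every library had a median of 199069.5 intronic bases, against 18005 for 15407 genes. Their median log2 ratio of replicate 2 over replicate 1 was -1.16 in the controls and -1.38 in the mutants, against 0.06 and 0.07 for all genes, and 33 of 40 (82.5%) were lower in replicate 2 in both genotypes, against 38.2% of all genes. *Grm8* (850162 intronic bases) was at log2 ratios of -4.60 and -4.69, *Grm7* (915764) at -4.33 and -4.54 and *Grik2* (680688) at -3.75 and -3.84, whereas *Gabbr1* (21338) was at 0.17 and 0.37 and *Gria2* (105838) at 0.47 and 0.47. The 885 genes with at least the members' median of intronic bases were at -1.69 and -1.77, and 95.3% of them were lower in replicate 2 in both genotypes. Whether intronic reads were counted is not given for each version in the sources used here. The part of the software in these differences cannot be told apart from that of the replicate or of sex. These ratios were taken over all kept cells, whose mix of types also differed. Of 5710, 5659, 2973 and 3281 cells, 1298, 1107, 282 and 272 were inhibitory neurons. The part of this mix was not tested. Several long members also have predicted genes annotated on the same strand inside them, 6 in *Grik2* and 5 in *Grm5*, and reads there could be assigned to either.

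**Figure D4:**
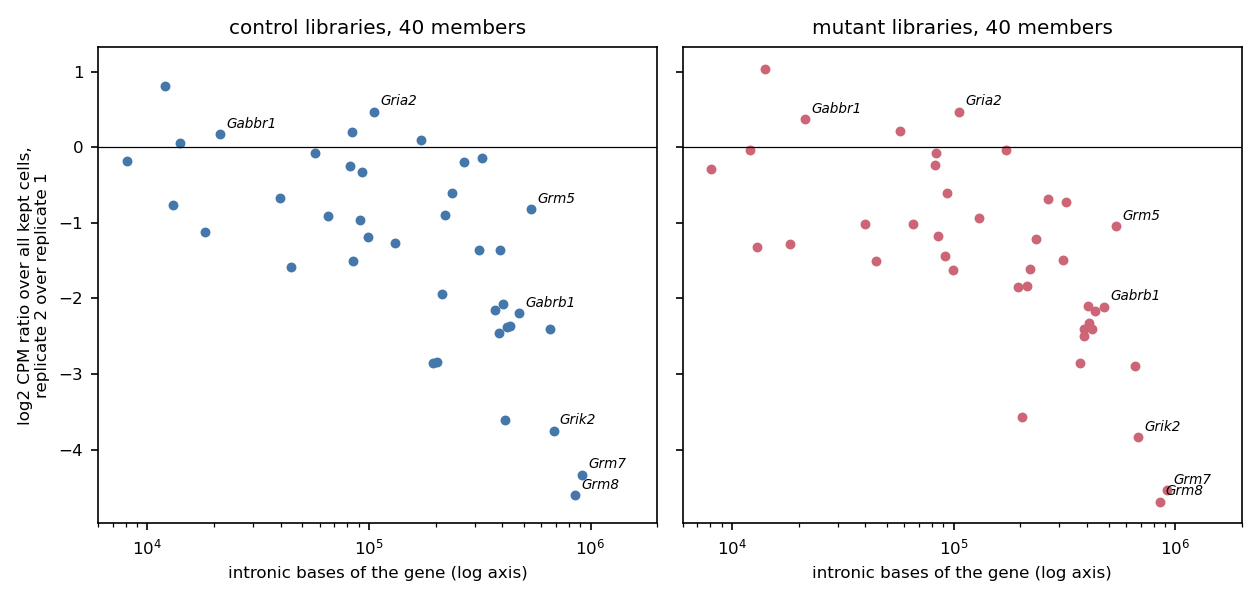
Log2 ratio of CPM over all kept cells between replicate 2 and replicate 1 against the intronic bases of the gene (log axis), for 40 members in the control (left) and mutant (right) libraries. Members with longer introns mostly lie lower, from *Gabbr1* above 0 to *Grm7* and *Grm8* below -4, in both genotypes alike.

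Mutant and control libraries were compared by a fit over all 4 libraries and by the log2 ratio within each replicate, whose libraries share the software version. In these ratios a count under 3 UMIs was set to 3. Where both libraries of a replicate were under 3 UMIs, their totals alone set the direction, for members and all genes alike. With edgeR's quasi-likelihood test on counts summed per library and cell type, with genotype as the only term, 0 of 23 to 37 members tested per type passed an adjusted p of 0.05, and 0 had an unadjusted p under 0.05. Over all genes the percentage called was 0 in each of the 9 types, and 0.0231% to 0.136% had an unadjusted p under 0.05. DESeq2 also called 0 members and found 0 members with an unadjusted p under 0.05. The smallest unadjusted p of any member was 0.07135 (*Grin2d* in inhibitory neurons, edgeR adjusted p = 0.9997). The spread that this test uses includes the difference between replicates described above, so that the lack of calls does not show equal levels.

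In inhibitory neurons most members were lower in the mutant. Of 37 members tested, 23 were lower in both replicates, 5 were higher in both and 9 moved in opposite directions, against 27.7% of 12947 genes lower and 24.2% higher in both. The median log2 ratio of the members was -0.25 in replicate 1 and -0.31 in replicate 2, against -0.01 and -0.02 for all genes. At least 1.5-fold lower in both replicates were 5 members, among them *Grin2a*, *Grin2d*, *Grm2* and *Grik4*, against 0.911% of all genes, and 0 members were at least 1.5-fold higher in both, against 0.734%.

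*Grin2a* was at 16.8, 6.32, 6.23 and 2.28 CPM in these cells, on 155, 51, 10 and 4 UMIs. Its log2 ratios were -1.41 (95% counting interval -1.89 to -0.94) and -1.45 (-3.58 to 0.34), and the edgeR log2 change was -1.33 with a standard error of 0.809. Both mutant libraries were below the control of the same replicate, but mutant replicate 1 was above control replicate 2, so that the genotypes overlapped. In mutant replicate 2, *Grin2d* and *Grik4* rested on 3 UMIs each and *Grm2* on 4. None of these 4 genes had at least 10 UMIs in every library, whereas the remaining member at least 1.5-fold lower in both replicates did.

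*Gabbr2* and *Gria1*, with more UMIs than the genes just named, were lower in both replicates but not at least 1.5-fold in both. *Gabbr2* was at 38.3, 26.8, 20.6 and 12.5 CPM, with log2 ratios of -0.52 (-0.77 to -0.27) and -0.72 (-1.56 to 0.11), and for *Gria1* the ratios were -0.20 (-0.31 to -0.10) and -1.10 (-1.49 to -0.71). These intervals cover counting error alone. *Gria2* was at 534 and 547 CPM in replicate 1 and 774 and 965 CPM in replicate 2.

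The mix of clusters also differed between libraries, more between replicates than between genotypes, and its part in these ratios was not tested. A cluster led by *Prokr2* and *Slc32a1* made 62.1% (control) and 73.5% (mutant) of the inhibitory neurons in replicate 2, and 0 and 0.181% in replicate 1. A cluster with *Dlx6os1* and *Gad2* among its leading genes made 48.8%, 52.3%, 15.2% and 10.7% of the cells. A cluster led by *Adarb2* made 36.2%, 34.5%, 11.3% and 5.88% and a cluster led by *Epha6* 15%, 13%, 11.3% and 9.93%. Within replicate 2, *Grin2b* was at 87.4 (control) and 89.6 (mutant) CPM in the cluster led by *Prokr2* (175 and 200 cells). In that with *Dlx6os1* (43 and 29 cells) it was at 73.4 and 45.6 CPM. It was at 422 and 328 CPM in that led by *Adarb2* (32 and 16 cells). In that led by *Epha6* (32 and 27 cells) it was at 28.9 and 103 CPM. Values from so few cells are limited by counting error. When the clusters of the type were weighted alike in both libraries of a replicate, an alternative chosen after seeing the data, 18 members were lower in both replicates and 5 higher, against 25% and 25.4% of all genes, and the medians were -0.21 and -0.11. Then 2 members were at least 1.5-fold lower, *Grm2* among them, and *Gabrg1* was at least 1.5-fold higher. Within single clusters the median of the members ranged from -0.45 to 0.11 in replicate 1. In replicate 2 it ranged from -0.69 (over 5 members) to 0.11. The largest cluster, with *Dlx6os1* in replicate 1 and led by *Prokr2* in replicate 2, was at 0.11 in each. In replicate 1, 13 of 29 members were lower in that cluster. The clusters led by *Adarb2* and *Epha6* had 23 of 34 and 26 of 33 lower. In replicate 2, 6 of 15 were lower in the largest cluster. The clusters with *Dlx6os1* and *Epha6* had 5 of 5 and 4 of 9 lower. Of all genes, 48.8% to 52.1% were lower in replicate 1 and 42.8% to 48.3% in replicate 2. Without that weighting, 18 of the 34 partners tested were lower in both replicates and 2 higher, against 27.7% and 24.2% of all genes.

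In excitatory neurons, 14 of 35 members were lower in both replicates and 3 higher, against 24.5% and 24.6% of 11572 genes, and the medians were -0.18 and -0.15. For *Grm8* (1 and 2 UMIs) and *Gabrg3* (1 and 1), counted as lower, the floor of 3 UMIs set the direction in replicate 2. *Gabrb2* was at 67.7, 34.8, 8.64 and 4.02 CPM, with log2 ratios of -0.96 (-1.31 to -0.63) and -1.10 (-2.69 to 0.36). It was 1 of 2 members of this type at least 1.5-fold lower in both replicates, against 0.881% of all genes, and 0 were higher, against 0.899%. It rested on 280, 100, 12 and 7 UMIs, and the other was under 3 UMIs in mutant replicate 2. A cluster with *Neurod6* and *Unc5d* among its leading genes made 44.3% and 27.4% of these cells in control and mutant replicate 1 and 9.29% and 7.50% in replicate 2, and with clusters weighted alike only *Gabrb2* was counted. *Gria2* was at log2 ratios of 0.14 (0.08 to 0.21) and 0.10 (0.01 to 0.18) and *Grik5* at 0.29 (-0.05 to 0.62) and 0.70 (0.05 to 1.37).

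Among precursors, 0 of 23 members of excitatory precursors, 0 of 26 of NPCs and 0 of 28 of astrocyte progenitors were at least 1.5-fold apart in the same direction in both replicates, against 0.937%, 0.415% and 0.624% of all genes lower and 0.837%, 1.10% and 0.724% higher. Over all sizes, 4 members were higher in both replicates and 7 lower in excitatory precursors (23.6% and 26.6% of all genes), 6 and 5 in NPCs (26.1% and 22.5%) and 13 and 4 in astrocyte progenitors (25.4% and 24.4%). The floor of 3 UMIs set the replicate 2 direction of *Gabrb2* in excitatory precursors (1 and 0 UMIs), counted as higher. It did so for *Grik3* (2 and 1) and *Grm7* (2 and 0) in astrocyte progenitors, also counted as higher. *Grik2* in excitatory precursors was at 628, 462, 42.4 and 25.8 CPM, with log2 ratios of -0.44 (-0.55 to -0.33) and -0.72 (-1.39 to -0.07). There *Gabra4* was at 36, 31.8, 34.4 and 22.6 CPM and *Grm3* at 80.5, 71.7, 40.2 and 17.7 CPM. Both were lower in the mutant of each replicate. Their counting intervals included 0 in both replicates for *Gabra4* and in replicate 1 for *Grm3*. In astrocyte progenitors *Gria3* was at 26.5, 40, 19.3 and 26.3 CPM, with log2 ratios of 0.60 (0.29 to 0.90) and 0.45 (0.06 to 0.84). *Gabra2* (27.3, 32.5, 16.4 and 22.5 CPM) and *Gabbr1* (120, 136, 155 and 203 CPM) were likewise higher in the mutant of each replicate there. For *Gabra2* the counting interval of replicate 1 included 0. *Gria1* in NPCs was at 19.7, 27.7, 39.6 and 55.9 CPM, with log2 ratios of 0.49 (0.09 to 0.90) and 0.50 (0.02 to 0.98), and its genotypes overlapped across replicates. *Gabra2* in NPCs was at 31.5, 40.1, 20.6 and 31.9 CPM and *Grin3a* at 11.1, 11.9, 10.6 and 15.2 CPM. The counting interval of the ratio included 0 in both replicates for *Grin3a* and in replicate 2 for *Gabra2*. In IN progenitors 1 of 27 members, *Gabra4*, was at least 1.5-fold lower, against 0.533% of all genes, on 54, 24, 6 and 3 UMIs, and 0 were higher, against 0.985%. Over all sizes, 10 members of IN progenitors were higher in both replicates and 6 lower, against 29.8% and 21.7% of all genes. The floor likewise set the replicate 2 direction of *Gria1* (2 and 0 UMIs) and *Grik1* (1 and 2), both counted as higher. *Gria2* was at 194, 202, 372 and 376 CPM and *Grin2b* at 108, 109, 23.5 and 29.2 CPM in these cells.

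In astrocytes, 12 of 31 members were higher in both replicates and 4 lower, against 22.9% and 24.1% of 14855 genes, and the medians were 0.10 and 0.02. *Gria4* was at log2 ratios of -0.24 (-0.43 to -0.06) and -0.62 (-0.99 to -0.25), while *Grik5* was at 0.19 (0.04 to 0.33) and 0.47 (0.31 to 0.64). *Grin2a* was counted as at least 1.5-fold higher, as were 0.680% of all genes, on 12, 24, 2 and 13 UMIs, that is 0.663, 1.49, 0.165 and 0.992 CPM. The 2 UMIs of control replicate 2 were set to 3 in its ratio. In a cluster of 32 and 44 astrocytes in replicate 1 it was at 2.0 and 19.3 CPM, against 0.757 and 0.895 CPM in the cluster that held most astrocytes of that replicate. Of all members, 0 were at least 1.5-fold lower in astrocytes, against 0.505% of all genes.

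In OPCs, 0 of 34 members were at least 1.5-fold apart in both replicates, against 0.684% of all genes higher and 0.677% lower. Over all sizes, 12 members were higher in both replicates and 4 lower, against 24.4% and 22.3% of all genes. The floor of 3 UMIs set the replicate 2 direction of *Grm8* (1 and 2 UMIs), counted as lower. Among members with at least 20 UMIs in every library, *Grm3* had the widest ratios, at 57.4, 39.5, 25.3 and 9.97 CPM on 363, 344, 76 and 38 UMIs, with log2 ratios of -0.54 (-0.76 to -0.32) and -1.34 (-1.94 to -0.76). A cluster of 39 OPCs led by *Alk* (20, 10, 4 and 5 cells) held 475 of its UMIs, at 524 CPM, and made 3.63%, 1.28%, 1.12% and 1.04% of the OPCs. In the other clusters it was at 17.9, 28.5, 9.76 and 9.43 CPM in that led by *Col19a1* and 17.7, 11.8, 8.57 and 5.2 CPM in that led by *Dll3*. Its edgeR log2 change was -0.72 with a standard error of 0.822. With 1 library left out it ranged from -2.09 to 0.04 (without control replicate 1), and it was -0.05 without mutant replicate 2. Such fits mix the difference between replicates into the genotype change. With all 4 libraries the change was 0.02 at a mitochondrial limit of 5% and -0.06 with the members kept for clustering. *Gabra2* (28.2, 40.8, 16.3 and 20.5 CPM) and *Gria1* (57.6, 69.4, 14.6 and 18.4 CPM) were higher in the mutant of each replicate in OPCs. The counting interval of replicate 2 included 0 for both genes. In pri-OPCs *Gabrb1* was at least 1.5-fold lower, as were 0.916% of all genes, and 0 members were higher, against 1.05%. It was at 44.3, 27.2, 11.2 and 7.28 CPM. Over all sizes, 14 of 32 members were higher in both replicates and 3 lower, against 23.8% and 25.7%. *Grik1* was at 99.0, 161, 27.6 and 33.4 CPM in these cells, with log2 ratios of 0.70 (0.54 to 0.86) and 0.28 (-0.14 to 0.70), and *Grik4* was at 86.4, 109, 15 and 20.1 CPM. The mix of clusters differed between libraries here too, and its part in these ratios was not tested. A cluster with *Aspm* and *Pdgfra* among its leading genes made 41.5%, 55.7%, 50% and 58.9% of the pri-OPCs, and a cluster led by *Dll1* the rest. *Grik1* was at 203, 272, 52.5 and 54.7 CPM in the first and 10.7, 7.39, 1.43 and 1.26 CPM in the second. *Gabrb1* was at 26.5, 32.4, 8.18 and 6.27 CPM in the first and 59.4, 20.1, 14.3 and 8.81 CPM in the second. With clusters weighted alike, as above, 11 members were higher in both replicates and 4 lower, against 21.5% and 25.5% of all genes, and 0 were at least 1.5-fold apart.

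**Figure D5:**
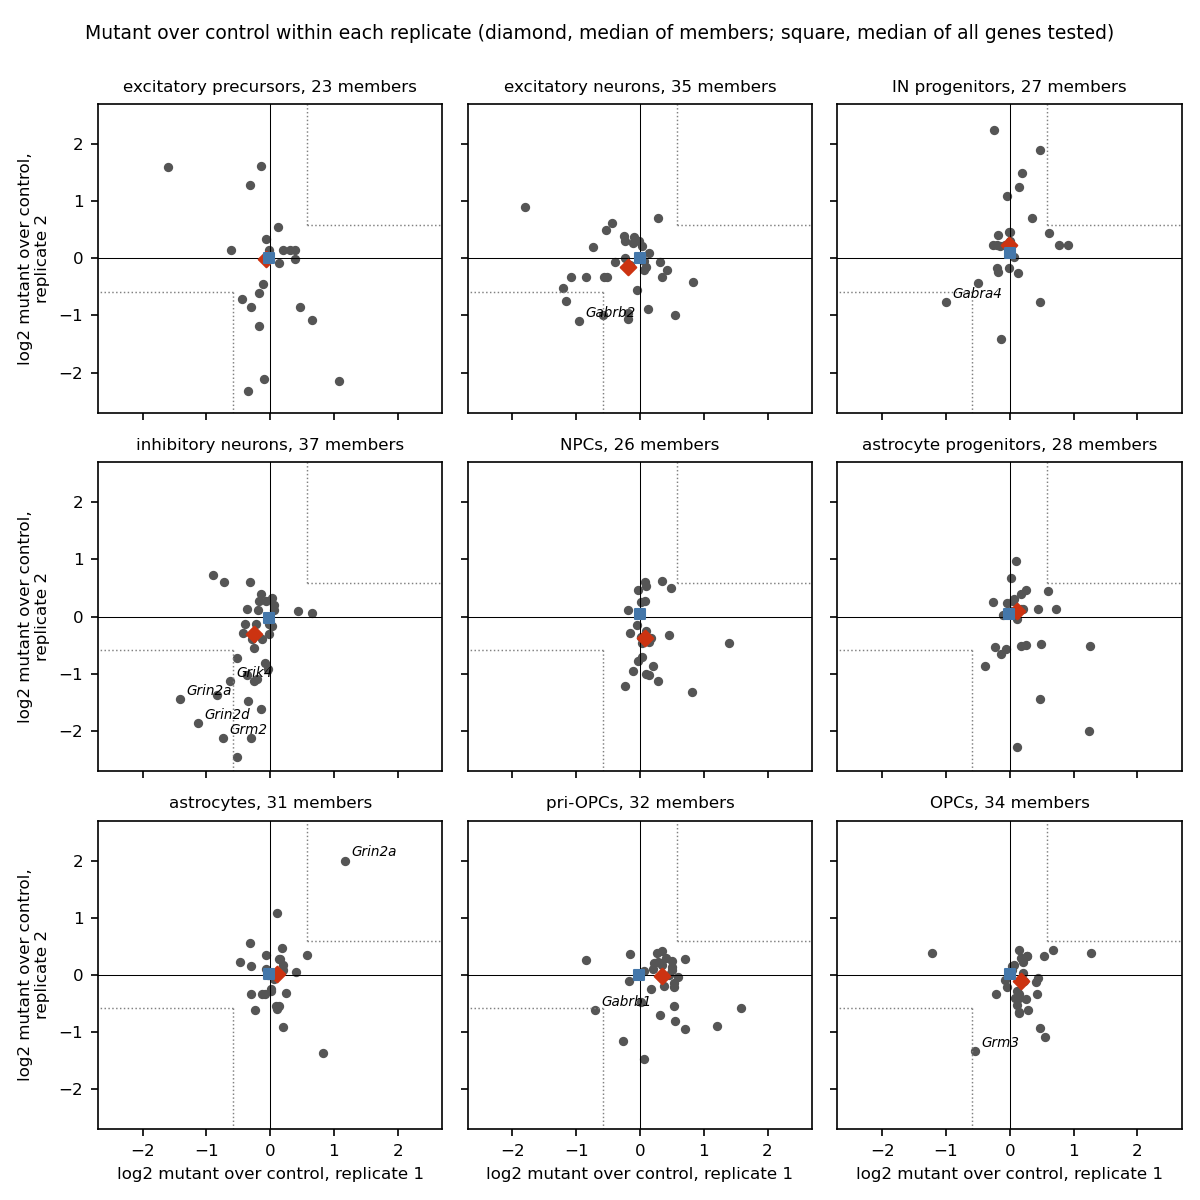
Log2 ratio of mutant over control CPM in replicate 1 (horizontal axis) and replicate 2 (vertical axis) for the members tested in each of 9 cell types; dotted corners hold members at least 1.5-fold apart in the same direction in both replicates. The median of the members (diamond) lies below and to the left of the median of all genes (square) in inhibitory neurons, at -0.25 and -0.31, and the genes named are in the corners, with *Grm3* just outside in OPCs.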

How the data were processed

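The authors produced one matrix of UMI counts per gene and barcode for each library with Cell Ranger (version 3.0 per the submitters' processing notes, 7.0.0 for replicate 1 and 5.0.1 for replicate 2 per the file headers) on mm10, and deposited these counts without normalization. Barcodes needed 2000 to 40000 UMIs, 1000 or more detected genes and a mitochondrial share of no more than 10%, and no doublet caller was run. Cells were clustered with scanpy 1.11.5 on 2000 variable genes without the members, 30 components and 15 neighbours at a resolution of 1, and named from marker lists by a rule set after the cells had been seen. The members and lists were chosen with earlier results of these data known. Counts were summed per library and type, divided by the total (CPM), and fitted with edgeR 4.0.16 in R 4.3.3 (filterByExpr, TMM, quasi-likelihood, genotype as the only term, Benjamini-Hochberg adjustment over all genes of a type). Replicates are pools of mice, and p-values measure the spread between libraries. Members given with every library were up to 3 per receptor class and contrast with the largest smallest ratio, and up to 3 per type with the largest smaller genotype ratio at 20 or more UMIs in every library, and any other member could be named. The scripts were tested on simulated data. Alternatives were DESeq2 1.42.0, no TMM, TMM-scaled CPM, a count minimum of 10 in each library, omission of the filter, a replicate block, each library left out, a mitochondrial limit of 5%, a resolution of 2, members kept for clustering, and a minimum of 3 UMIs for ratios between types. Annotation was GENCODE vM21, which held 99.6% of the genes. Some genes counted here are not reported by name.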

Additional observations from a re-analysis of the deposited data

Results flagged for a closer look

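*Grin2a*, a GluN2 subunit that becomes prominent after birth, differed in direction between genotypes in 2 cell types. In astrocytes its log2 ratios of mutant over control were 1.17 and 2.0, and in inhibitory neurons they were -1.41 and -1.45, so that the mean log2 ratios of the 2 types differed by 3.01. The difference between the types was not tested. The astrocyte values rest on 12, 24, 2 and 13 UMIs, at 0.165 to 1.49 CPM. The 2 UMIs of control replicate 2 were set to 3, so that the ratio of 2.0 and the difference of 3.01 are partly set by that floor. In replicate 1, 1 cluster of 32 control and 44 mutant astrocytes was at 2.0 and 19.3 CPM, while the cluster holding 73.2% and 76.5% of the astrocytes was at 0.757 and 0.895 CPM.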

How the results depend on the processing

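Of the counts of members called between genotypes, 69 under other settings and 36 with a library left out stayed at 0. The exception was the fit with a replicate block, which called 1 member, *Grm3* in OPCs (log2 change -0.80, adjusted p = 0.02982, with 17 genes or 0.128% called), and 1 partner, *Dlg2* in excitatory neurons (-0.99, adjusted p = 0.002747). The labels share replicate numbers but do not say that a number marks a shared batch; deviations of same-numbered libraries from their genotype's mean correlated at 0.768 to 0.894 across genes. The block called no other member. With it, 9 of 37 members of inhibitory neurons, 8 of 35 of excitatory neurons and 7 of 32 of pri-OPCs had an unadjusted p under 0.05, against 2.5%, 4.72% and 6.02% of all genes, and 1 to 3 members in each of the other 6 types.

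Of 16 moved counts of members at least 1.5-fold apart, a filter of at least 10 counts in every library left 0 in excitatory neurons, IN progenitors and astrocytes and 1 in inhibitory neurons. A mitochondrial limit of 5% gave 7 in excitatory neurons, 3 in pri-OPCs and 0 in IN progenitors and astrocytes. A resolution of 2 gave 1 in excitatory and 3 in inhibitory neurons. Members kept for clustering gave 0 in IN progenitors and pri-OPCs and 1 in astrocyte progenitors. Clusters weighted alike, chosen after seeing the data, gave 3 in inhibitory neurons, 1 in excitatory neurons and 0 in pri-OPCs. Between types, a resolution of 2 gave 6 members higher in excitatory than inhibitory neurons, a minimum of 3 UMIs 4 lower, and astrocytes over their progenitors gave 6 with TMM scaling and 5 at a limit of 5%. With 1 library left out, the counts ranged from 3 to 6 higher and 1 to 3 lower for excitatory over inhibitory neurons, 7 to 13 for inhibitory neurons over IN progenitors and 3 to 5 for astrocytes over their progenitors. Causes were not tested.

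Uncalled genotype changes turned sign when a library was left out: *Gabbr2* in inhibitory neurons (-1.32 to 0.01), *Gabrb1* in pri-OPCs (-1.90 to 0.64), *Gabrb2* in excitatory neurons (-3.06 to 1.11), *Gria1* in NPCs (-0.05 to 1.0), *Gria2* in IN progenitors (-0.48 to 0.51), *Grik2* in excitatory precursors (-3.62 to 2.49), *Grik4* in inhibitory neurons (-2.09 to 0.42) and *Grm3* in OPCs (-2.09 to 0.04). These fits had genotype as the only term, so that leaving out 1 library put the difference between replicates into the genotype change. In inhibitory neurons the median of the members was 0.598 without control replicate 1 and -1.436 without mutant replicate 1. The turned signs thus do not measure how stable a ratio within a replicate was. *Gabra4* in IN progenitors was at 0.17 with members kept and *Grm3* in OPCs at 0.02 at a limit of 5%. *Gria2* in IN progenitors was at 0.03 without TMM, 0.00 with the replicate block and 0.24 at a limit of 5%. At a resolution of 2 no cluster was named IN progenitors and NPCs had under 20 cells in mutant replicate 2, so that neither could be computed. Members under 20 UMIs in a library are limited by counting error.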
